A study of Mus musculus with 15 samples.

Results

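The zinc, iron and metal handling genes described here were chosen by symbol. They comprise every gene of the Slc11, Slc30, Slc31, Slc39, Slc40 and Slc41 transporter families in the count table, the metallothioneins Mt1 and Mt2, the ferritins Fth1 and Ftl1, the transferrin receptor Tfrc, and the iron regulatory proteins Aco1 and Ireb2. The rule found 39 genes among the 24421 in the table, and used no measured value. Of these, 32 passed the filter on low counts and were tested.

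RNA was sequenced from primary kidney cells, labelled proximal tubule cells, of C57BL/6 mice that either carried (WT) or lacked (KO) both copies of the gene Diet1. The 4 groups were female Diet1-/- (4 libraries), female Diet1+/+ (4 libraries), male Diet1-/- (3 libraries) and male Diet1+/+ (4 libraries), and the cells of every group had been passaged once in culture. Each group was 1 pool of cells from 3 to 4 animals that was divided into technical replicates, per the labels, and the p-values below therefore measure technical spread alone. The ages of the mice and the extent of the deletion are not given in the sources used here, and the targeted gene is not analysed here.

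Cells take up iron mainly as transferrin bound to the transferrin receptor, store it in ferritin shells built of heavy and light chains, and release it through ferroportin, encoded by Slc40a1. Iron regulatory proteins bind hairpins called iron responsive elements when iron is scarce, which blocks translation of messages with a hairpin in the 5′ untranslated region and stabilises Tfrc mRNA through hairpins in its 3′ untranslated region. Zinc enters the cytosol through Slc39 (ZIP) proteins, leaves it through Slc30 (ZnT) proteins, and induces metallothioneins through the factor Mtf1, which binds metal response elements in their promoters. The kidney tubule reabsorbs filtered metals and their carrier proteins, and is a known site of metallothionein-bound metal.

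Sequences matching the iron responsive hairpin occurred in 4 of the metal handling genes, and are shown because these 4 include Slc40a1 and Tfrc, the members that moved most in female cells, and both ferritins. They were found in the GENCODE M21 transcripts (GRCm38, the same assembly as mm10) as a single C, 5 bases, a loop of CAGTGN or CAGAGN, and 5 bases pairing with the first 5, each hairpin being shown as 27 bases of the mRNA strand. The last loop base could be any but G, and G-T pairs were allowed. The bulged C and the loop are in capitals.
Fth1, 5′ untranslated region: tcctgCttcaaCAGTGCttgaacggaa
Ftl1, 5′ untranslated region: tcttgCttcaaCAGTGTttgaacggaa
Slc40a1, 5′ untranslated region: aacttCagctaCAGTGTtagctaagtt
Tfrc, 3′ untranslated region: tttatCagtgaCAGAGTtcactataaa
Tfrc, 3′ untranslated region: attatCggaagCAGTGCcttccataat
Tfrc, 3′ untranslated region: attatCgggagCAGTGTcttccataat
Tfrc, 3′ untranslated region: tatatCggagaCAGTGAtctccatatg
Tfrc, 3′ untranslated region: attatCgggaaCAGTGTttcccataat

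The Fth1 hairpin lies at chr19:9982733-9982759 on the plus strand, that of Ftl1 at chr7:45459780-45459806 on the minus strand, and that of Slc40a1 at chr1:45925466-45925492 on the minus strand. The 5 hairpins of Tfrc run from chr16:32631161-32631187 to chr16:32631711-32631737 on the plus strand, in the order shown. Such a match, anywhere in a transcript and coding sequence included, occurred in 482 of 21877 protein-coding genes (2.2%). Among the 39 metal handling genes it occurred in these 4. A match describes the letters and does not show that a protein binds there. Nor does a missing match show that a gene lacks such an element, since hairpins with an unpaired base in these 5 pairs were not searched.

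Sequences before the RefSeq starts of the metallothioneins Mt1 and Mt2 are shown by a rule that named these genes whatever their change. RefSeq's table (GRCm38.p6) gave the 250 bases before each start, with the metal response cores TGCACNC and TGCGCNC, searched on both strands, in capitals. Matches that overlapped were counted separately, which does not occur in either sequence shown. Bases after the RefSeq start were not searched. That start differs from the GENCODE start used for gene positions here. The Mt1 window ends at 94179088, past the GENCODE start at 94179082. The Mt2 window ends at 94172617, short of the GENCODE start at 94172664, and the bases between were not searched. Cores outside these windows would be missed.
Mt1, chr8:94178839-94179088, plus strand: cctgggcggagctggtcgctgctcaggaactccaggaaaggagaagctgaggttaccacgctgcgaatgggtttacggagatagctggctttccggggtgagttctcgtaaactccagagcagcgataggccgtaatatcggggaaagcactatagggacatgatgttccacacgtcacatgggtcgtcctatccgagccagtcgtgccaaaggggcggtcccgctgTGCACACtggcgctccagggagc
Mt2, chr8:94172368-94172617, plus strand: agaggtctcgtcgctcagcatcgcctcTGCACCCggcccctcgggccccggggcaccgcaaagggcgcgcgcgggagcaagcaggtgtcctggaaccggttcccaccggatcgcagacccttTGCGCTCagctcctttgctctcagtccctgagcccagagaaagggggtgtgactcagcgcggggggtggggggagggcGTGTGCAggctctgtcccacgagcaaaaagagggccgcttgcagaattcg

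The Mt1 window held 1 core, whose first base lay 23 bases before the RefSeq start. The Mt2 window held 3, at 223, 128 and 50 bases before its RefSeq start. At least 1 core stood in 21.4% of all 32851 windows in the table and at least 3 in 1.26%. Windows were found for 33 of the 39 genes, 40 windows in all, of which 18 held at least 1 core.

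Library totals ran from 17648416 to 30896637 counts, and libraries of a group correlated at 0.994 or more on the log2 CPM scale, against at most 0.9926 between groups. CPM, a gene's count relative to its library's total, is given below with TMM scaling, a correction for library composition, and a fold change is the log2 ratio of KO to WT with its standard error. Of 13 proximal tubule markers, Slc34a1, Slc5a2, Slc5a12, Slc22a6 and Slc13a3 averaged below 1 CPM in all 4 groups, so these defining transporters were near 0, and the other 8 were measured. Markers of other cells were present: fibroblast markers, led by collagens but with Dcn and Lum below 1 CPM in all groups, summed to 2551 to 2780 CPM in female KO, 3571 to 3847 in female WT, 1792 to 1979 in male KO and 3435 to 3672 in male WT. Leukocyte markers summed to 59.9 to 73.5 CPM in female KO, 46.0 to 55.2 in female WT, 44.9 to 45.8 in male KO and 30.2 to 35.2 in male WT, with Cd3e alone below 1 CPM in all groups. Distal nephron markers, 7 of 10 below 1 CPM in all groups, summed to 4.14 to 7.44 CPM in female KO, 18.6 to 20.5 in female WT, 6.71 to 8.51 in male KO and 10.4 to 13.1 in male WT, and their part in the results was not tested. In bulk RNA, fewer cells of a type and less RNA per cell cannot be told apart.

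Level per kilobase of principal transcript differed among the metal handling genes by several orders of magnitude. The light ferritin chain Ftl1 stood highest at 1506 CPM per kb in female KO, 1384 in female WT, 1657 in male KO and 1725 in male WT. The heavy chain Fth1 followed at 281 CPM per kb in female KO, 252 in female WT, 290.4 in male KO and 294 in male WT. Mt1 was next in all 4 groups (99.6 CPM per kb in female KO, 108 in female WT, 121 in male KO and 108 in male WT), then Slc39a7, which releases zinc from the endoplasmic reticulum (86.7, 85.2, 85.6 and 89.1 in the same order), though 80.7% of its exon length overlaps another annotated gene. At the low end of the tested genes were Slc39a4, an intestinal zinc importer, at 0.396 to 0.537 CPM per kb, and Slc39a2 at 0.188 to 0.276.

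**Figure D1:**
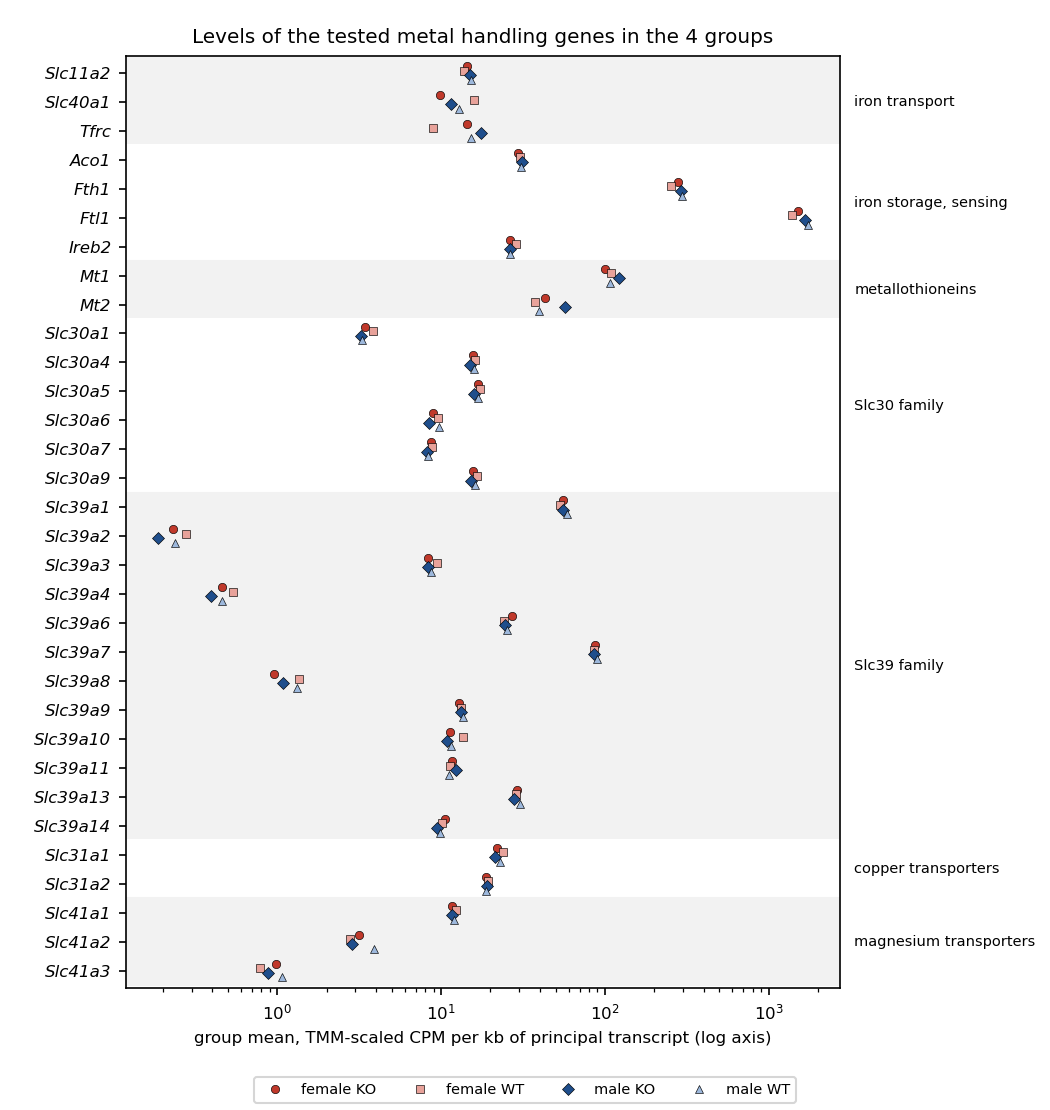
Mean level of the 32 tested metal handling genes in the 4 groups, as TMM-scaled CPM per kb of principal transcript on a log axis; each symbol is the mean of 3 or 4 libraries. Ftl1 and Fth1 stood at the right in every group and Slc39a2 at the left, and the groups lay apart for Tfrc, Slc40a1, Mt2 and Slc41a2.

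The other 7 genes had too few counts to test. Slc30a8, the zinc transporter of insulin granules, had 0 counts in all 15 libraries, which allows at most 3 counts, or 0.0971 to 0.17 CPM, in a library. Slc39a12, Slc39a5, Slc30a10 and Slc30a2 had at most 3 counts in any library, and Slc30a3, the transporter of synaptic vesicles, at most 7. Slc11a1, the divalent metal pump of macrophage phagosomes, had 4 to 18 counts per library. Such floors and counts cover counting error only.

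In female cells 12 of the 32 tested genes changed with KO, 6 higher and 6 lower, at an adjusted p below 0.05. This is 37.5% of them, close to the 39.3% of all 13912 genes tested that changed in that comparison (20.7% higher and 18.6% lower). With libraries scaled by their totals alone, the split was 3 higher and 11 lower. That scaling moved the median of all genes to -0.038, and the share of all genes called under it is not given here. In male cells 7 of 32 changed, 3 higher and 4 lower, or 21.9% against 20.2% of all genes (10.1% higher and 10.1% lower). Neither share shows that metal handling genes changed more often than other genes, and the medians over the 32 genes were -0.04 in female and -0.06 in male cells, beside a median of 0.0 over all genes in both.

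The KO effect itself differed between the sexes for 9 of the 32 genes (28.1%), against 15.6% of all genes tested (9.76% with a more positive effect in female cells and 5.89% with a more negative one). Of the 9, the effect was more positive in female cells for Slc41a2, Tfrc, Slc39a6, Fth1 and Slc39a1, and more negative for Slc40a1, Mt2, Mt1 and Slc39a10.

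**Figure D2:**
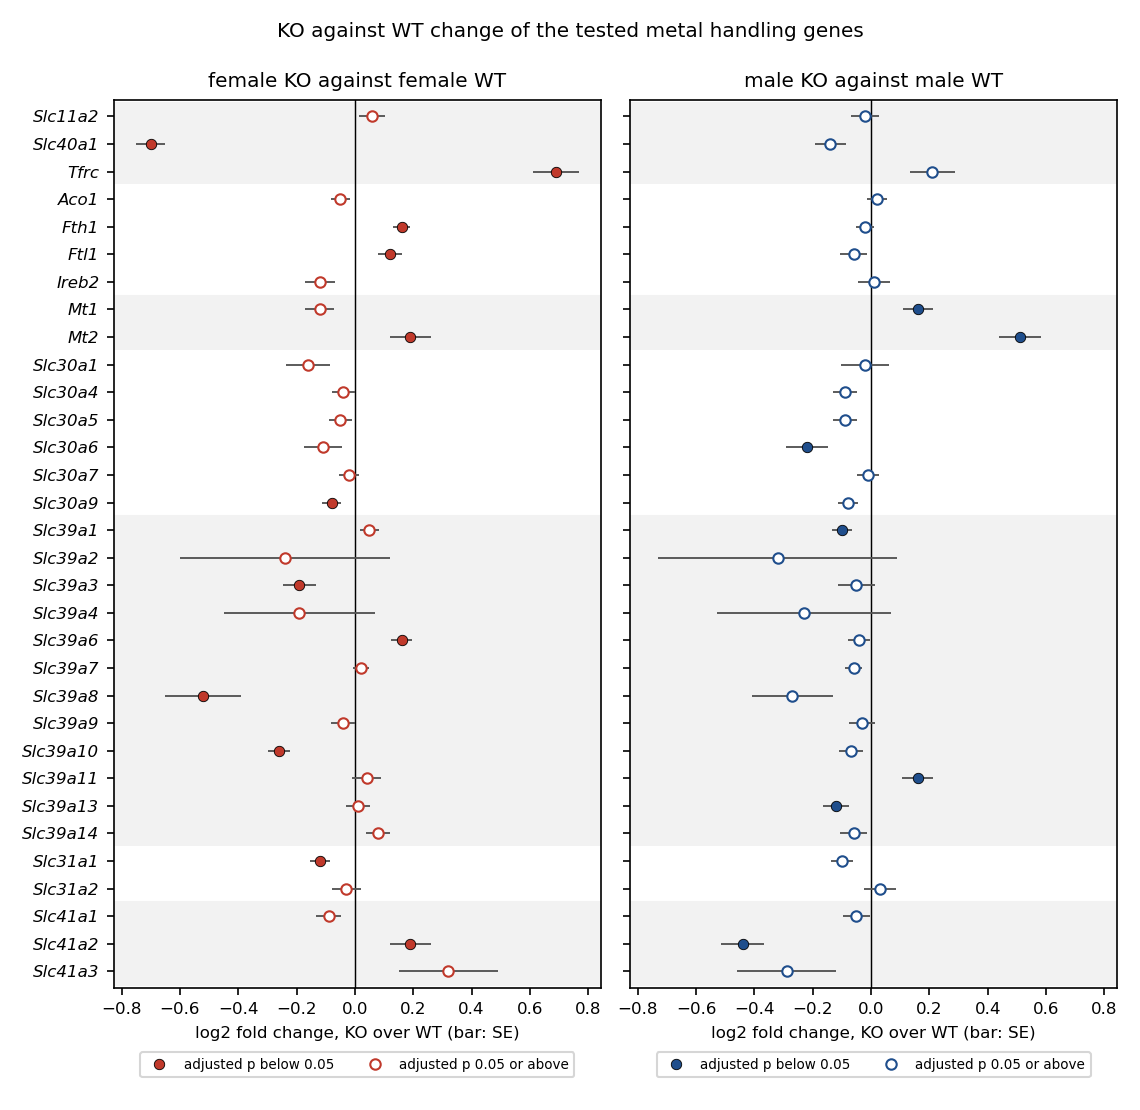
Log2 fold change of KO over WT for the 32 tested genes, in female cells (left) and male cells (right); points are edgeR estimates, bars are 1 standard error, and filled points have an adjusted p below 0.05. Slc40a1 (-0.70) and Tfrc (0.69) stood farthest from 0 in female cells, and Mt2 (0.51) and Slc41a2 (-0.44) in male cells.

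Among the iron transport genes, female KO cells had more Tfrc mRNA and less Slc40a1 mRNA than female WT cells, each by 1.62-fold, while neither passed the test in male cells. Tfrc encodes the receptor that brings transferrin-bound iron into the cell (chr16:32608920-32632794, plus strand), and Slc40a1 encodes ferroportin, the known iron exporter of cells (chr1:45908068-45926523, minus strand). Slc11a2, the divalent metal transporter that moves iron out of endosomes, was not called in either sex.

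Tfrc was at 63.6, 71.9, 72.7 and 73.3 CPM in female KO libraries, against 43.1, 43.7, 43.5 and 44.0 CPM in female WT libraries. Every female KO library stood above every female WT library, and the WT libraries lay within a narrow band. The log2 fold change was 0.69 ± 0.078 (SE), with an adjusted p of 3.78e-06 from edgeR's quasi-likelihood test. In male KO libraries Tfrc was at 78.9, 87.0 and 90.3 CPM, against 64.2, 71.3, 85.0 and 76.4 CPM in male WT libraries. These groups overlapped, since the WT library at 85.0 CPM stood above the lowest KO library. The male log2 fold change of 0.21 ± 0.078 missed the threshold (adjusted p = 0.0789) and passed it without male KO 1 (adjusted p = 0.0425) or male WT 3 (adjusted p = 0.000825), under DESeq2 (adjusted p = 0.0223), under limma-voom (adjusted p = 0.0186) and with a replicate block (adjusted p = 0.000129). The female effect exceeded the male one by 0.49 ± 0.11 (adjusted p = 0.00627), and female WT was the lowest of the 4 groups.

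The 16 cell cycle genes, none of them below 1 CPM in all groups, rose with KO, as Tfrc did in female cells. Each of the 16 was called higher with KO in both sexes, against 20.7% of all genes in female and 10.1% in male cells. Their summed level was 736 to 782 CPM in female KO, 458 to 475 in female WT, 836 to 871 in male KO and 653 to 679 in male WT. As for Tfrc, female WT was lowest and male KO highest. The part of the cell cycle genes in the Tfrc result was not tested.

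Slc40a1 was at 31.3, 32.4, 33.9 and 34.6 CPM in female KO libraries, against 55.9, 57.2, 52.7 and 49.1 CPM in female WT libraries. The groups lay far apart, the highest KO library being well under the lowest WT library. Its log2 fold change was -0.70 ± 0.05 (adjusted p = 1.98e-13), and the call held under each of the 18 alternative settings that could be fitted. Male KO libraries had 39.2, 39.5 and 37.7 CPM, against 40.5, 46.5, 42.8 and 42.4 CPM in male WT libraries. The male groups did not overlap but lay close together, and the log2 fold change of -0.14 ± 0.054 just missed the threshold (adjusted p = 0.0546), passing it without male WT 1 (adjusted p = 0.018), with upper-quartile scaling, with a filter at 5 CPM or none, and with a replicate block (adjusted p from 0.0239 to 0.0498). The female effect was more negative (difference -0.55 ± 0.074, adjusted p = 9.44e-07). The leukocyte marker sums given above were higher in KO than in WT cells of both sexes, opposite to Slc40a1, and the fibroblast sums were lower in KO cells of both sexes. Of 9 tested fibroblast markers, 2 rose and 6 fell in female KO cells, against 20.7% and 18.6% of all genes. In male KO cells 0 rose and 7 fell, against 10.1% of all genes in each direction. The part of leukocytes or fibroblasts in the Slc40a1 result was not tested.

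Slc11a2 averaged 43.2 ± 2.66 CPM in female KO, 41.7 ± 1.4 in female WT, 45.2 ± 0.938 in male KO and 45.9 ± 1.53 in male WT (SD, n = 4, 4, 3 and 4). The log2 estimate of KO over WT was 0.06 ± 0.045 in female cells (95% interval -0.03 to 0.14, adjusted p = 0.345) and -0.02 ± 0.048 in male cells (-0.11 to 0.07, adjusted p = 0.816).

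**Figure D3:**
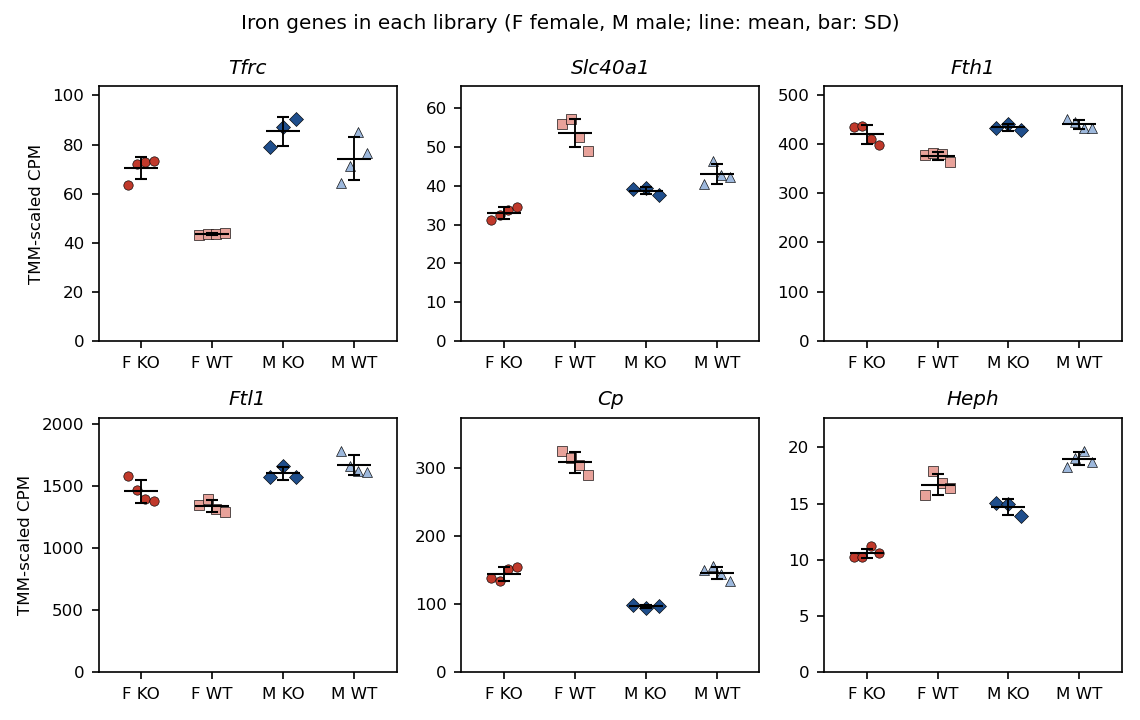
TMM-scaled CPM of 6 iron genes in each library, on linear axes from 0; points are libraries, the line is the group mean and the bar the SD (n = 4, 4, 3 and 4 from left to right). Female KO and female WT libraries did not overlap for Tfrc, Slc40a1, Fth1, Cp and Heph, and overlapped for Ftl1.

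Both ferritin chains rose in female KO cells by small amounts, and neither was called in male cells. Fth1, the heavy chain with ferroxidase activity (chr19:9980598-9985098, plus strand), was at 434, 437, 410.0 and 397 CPM in female KO libraries, against 377, 382, 380.4 and 364 CPM in female WT libraries. Each KO library exceeded each WT library. KO over WT gave a log2 fold change of 0.16 ± 0.028 (adjusted p = 2.91e-05). In male cells Fth1 was at 432, 441 and 428 CPM in KO libraries, against 450.3, 444, 432 and 432 CPM in WT libraries. The male groups overlapped, with a log2 fold change of -0.02 ± 0.031 (adjusted p = 0.72). The effects differed between the sexes by 0.18 ± 0.042 (adjusted p = 0.00221).

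Ftl1, the light chain that aids mineral formation in the ferritin core (chr7:45457944-45459884, minus strand), was at 1585, 1469.9, 1393 and 1381 CPM in female KO libraries, against 1352, 1398, 1315 and 1295 CPM in female WT libraries. The WT library at 1398 CPM stood above 2 of the KO libraries, so the groups overlapped. The log2 fold change of 0.12 ± 0.042 passed the test (adjusted p = 0.0309) but not without female KO 1 or 2 or female WT 1, 3 or 4 (adjusted p from 0.0502 to 0.088). Scaling by library totals alone also ended the call (log2 fold change 0.08, adjusted p = 0.152), as did upper-quartile scaling (adjusted p = 0.0654) and leaving out the filter (adjusted p = 0.086). Male KO libraries had 1577, 1662 and 1572 CPM, against 1784.5, 1661.5, 1619 and 1616 CPM in male WT libraries, with a log2 fold change of -0.06 ± 0.045 (adjusted p = 0.423) that passed the test with a replicate block alone (adjusted p = 0.0417). Ferritin genes have near-identical processed copies in the genome, and 34.6% of the Ftl1 exon length overlaps other annotated genes, so its counts are uncertain.

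The iron sensors were not called. Aco1, which encodes the iron regulatory protein that doubles as a cytosolic aconitase, averaged 113 ± 2.38 CPM in female KO and 117 ± 2.8 in female WT, and 119 ± 1.37 in male KO and 117 ± 4.46 in male WT. Its log2 fold changes were -0.05 ± 0.032 (adjusted p = 0.255) in female and 0.02 ± 0.034 (adjusted p = 0.698) in male cells. The female change passed the test with scaling by library totals alone (-0.08, adjusted p = 0.0318). Ireb2, the iron regulatory protein that is degraded when iron is plentiful, averaged 151 ± 8.79 CPM in female KO and 164 ± 5.03 in female WT, and 152 ± 4.96 in male KO and 151 ± 12.5 in male WT. The female log2 fold change of -0.12 ± 0.051 missed the threshold (adjusted p = 0.0789) but passed it without female KO 3 (adjusted p = 0.0314), and under DESeq2, limma-voom, scaling by totals alone or by upper quartiles, a fit of the female groups alone and a replicate block (adjusted p from 0.00626 to 0.0481).

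Both metallothioneins rose in male KO cells. They encode small cysteine-rich proteins that bind zinc and copper, and the genes lie side by side on chromosome 8 (Mt2 at chr8:94172664-94173568 and Mt1 at chr8:94179082-94180327, plus strand). Mt2 rose 1.43-fold in male and 1.14-fold in female KO cells, whereas Mt1 rose 1.12-fold in male cells and had a negative estimate, short of the threshold, in female cells.

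In male KO libraries Mt2 was at 28.8, 28.6 and 29.5 CPM, against 22.5, 20.5, 19.7 and 18.2 CPM in male WT libraries. All 3 KO libraries stood well above the highest WT library. The log2 ratio was 0.51 ± 0.072 (adjusted p = 1.73e-06), and it was called under each of the 17 alternative settings that could be fitted. Female KO libraries had 22.8, 21.6, 22.8 and 20.4 CPM of Mt2, against 21.5, 20.5, 16.5 and 18.1 CPM in female WT libraries. Here the groups overlapped, and the log2 fold change of 0.19 ± 0.071 (adjusted p = 0.0283) was lost without female KO 1 or 3 or female WT 3 or 4 (adjusted p from 0.0728 to 0.155). Scaling by library totals alone also ended it (log2 fold change 0.16, adjusted p = 0.0819). The difference between the sexes, -0.32 ± 0.1 (adjusted p = 0.0277), was lost without any of 6 libraries, namely female KO 4, female WT 1 or 2, male KO 3 and male WT 3 or 4 (adjusted p from 0.0512 to 0.0903). Exons of another annotated gene that is not in the table cover 73.5% of the Mt2 exon length, so its counts are uncertain too.

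Mt1 was at 67.1, 66.7 and 65.7 CPM in male KO libraries, against 64.1, 59.4, 55.8 and 57.4 CPM in male WT libraries. The male groups did not overlap, but the WT library at 64.1 CPM came close to the KO libraries. Its log2 fold change of 0.16 ± 0.052 (adjusted p = 0.0233) was lost without male KO 1, 2 or 3 or male WT 3 or 4 (adjusted p from 0.0585 to 0.0808). In female cells Mt1 was at 57.8, 54.8, 52.9 and 53.2 CPM in KO libraries, against 64.9, 62.2, 54.5 and 55.9 CPM in WT libraries. The female groups overlapped, with a log2 fold change of -0.12 ± 0.05 (adjusted p = 0.0579) that missed the threshold. It passed without female KO 1 or female WT 3 or 4 (adjusted p from 0.015 to 0.027), and with DESeq2 size factors, scaling by upper quartiles or by totals alone, a filter at 5 CPM or none, a fit of the female groups alone or a replicate block (adjusted p from 0.0125 to 0.0476). The effects differed between the sexes by -0.28 ± 0.072 (adjusted p = 0.00565).

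**Figure D4:**
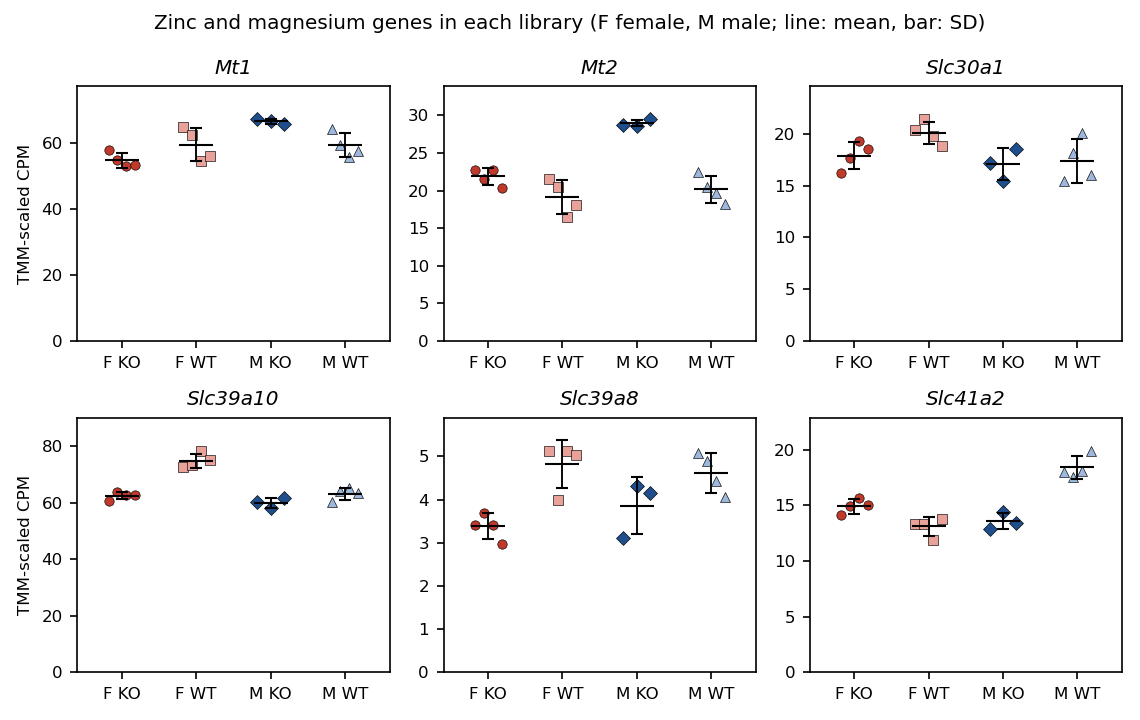
TMM-scaled CPM of 5 zinc genes and the magnesium transporter Slc41a2 in each library, on linear axes from 0; points are libraries, the line is the group mean and the bar the SD (n = 4, 4, 3 and 4 from left to right). The 3 male KO libraries stood above the male WT libraries for Mt2 and below them for Slc41a2, and the female WT libraries stood above the other groups for Slc39a10.

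Of the 10 genes of the Slc30 (ZnT) family, grouped by symbol, 6 were tested, and 1 changed in each sex, both lower in KO. This is 16.7% in each sex, against 39.3% of all genes in female and 20.2% in male cells. Slc30a1, the exporter of the plasma membrane (chr1:191906767-191913247, plus strand), was at 16.2, 17.7, 19.3 and 18.5 CPM in female KO libraries, against 20.4, 21.4, 19.8 and 18.8 CPM in female WT libraries. The groups overlapped at their edges, and the log2 fold change of -0.16 ± 0.076 did not pass the test (adjusted p = 0.101), though it did with scaling by library totals alone (adjusted p = 0.0375) and in a fit of the female groups alone (adjusted p = 0.046). Male KO libraries had 17.2, 15.4 and 18.5 CPM, against 15.4, 18.1, 20.1 and 16 CPM in male WT libraries, with a log2 fold change of -0.02 ± 0.083 (adjusted p = 0.903).

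Slc30a9, linked to zinc export from mitochondria, was at 91.6, 90.4, 88.6 and 88.8 CPM in female KO libraries, against 94.9, 93.1, 97.1 and 94.2 CPM in female WT libraries. The groups did not overlap, although the log2 fold change was only -0.08 ± 0.031 (adjusted p = 0.045), and it was lost without female KO 2, 3 or 4 or female WT 1, 3 or 4 (adjusted p from 0.0549 to 0.126). DESeq2 (adjusted p = 0.0528) and leaving out the filter (adjusted p = 0.0607) also ended it. In male cells its log2 fold change was -0.08 ± 0.034 (adjusted p = 0.091).

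Slc30a6, which pairs with Slc30a5 to load zinc into secretory pathway enzymes, was at 18.8, 16.5 and 18.9 CPM in male KO libraries, against 22.4, 20.2, 21.9 and 19.2 CPM in male WT libraries. Every male KO library was below every male WT library. Its log2 fold change was -0.22 ± 0.071 (adjusted p = 0.0258), and it was lost without male KO 2 or male WT 1 or 3 (adjusted p from 0.0658 to 0.194). In female cells it was -0.11 ± 0.066 (adjusted p = 0.182). Slc30a4, Slc30a5 and Slc30a7, transporters of endosomes and the Golgi, had estimates of -0.05 to -0.02 in female and -0.09 to -0.01 in male cells, and none passed the test. Without male WT 1, Slc30a4 passed it in male cells (log2 fold change -0.13, adjusted p = 0.014).

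Among the 14 genes of the Slc39 (ZIP) family, grouped by symbol, 12 were tested. In female KO cells Slc39a6 rose and Slc39a8, Slc39a10 and Slc39a3 fell. In male KO cells Slc39a11 rose and Slc39a13 and Slc39a1 fell. The called share was 33.3% in female and 25% in male cells, against 39.3% and 20.2% of all genes.

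Slc39a8, an importer of zinc and manganese that also carries cadmium (chr3:135825279-135888572, plus strand), was at 3.42, 3.70, 3.42 and 2.97 CPM in female KO libraries, against 5.12, 3.99, 5.13 and 5.04 CPM in female WT libraries. The groups did not overlap, but WT library 2 lay nearer to the KO libraries than to the other WT libraries. On the log2 scale the change was -0.52 ± 0.13 (adjusted p = 0.0014). Male KO libraries had 3.11, 4.32 and 4.16 CPM, against 5.08, 4.89, 4.44 and 4.06 CPM in male WT libraries. These overlapped, and the log2 fold change of -0.27 ± 0.14 missed the threshold (adjusted p = 0.176). The difference between the sexes, -0.25 ± 0.19, was not called either (adjusted p = 0.421).

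Slc39a10, a plasma membrane importer that pairs with Slc39a6 (chr1:46807544-46892852, minus strand), was at 60.7, 63.7, 62.6 and 62.9 CPM in female KO libraries, against 72.8, 73.3, 78.4 and 75.0 CPM in female WT libraries. The groups were clearly apart. Its log2 change was -0.26 ± 0.037 (adjusted p = 5.72e-07). In male KO libraries it was at 60.3, 58.1 and 61.7 CPM, against 60.2, 64.3, 65.1 and 63.3 CPM in male WT libraries. The male groups overlapped (log2 fold change -0.07 ± 0.041, adjusted p = 0.231), and the female effect was more negative (difference -0.19 ± 0.055, adjusted p = 0.0142), which was lost without male KO 3 (adjusted p = 0.0576).

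Its partner Slc39a6 went the other way in female cells. It was at 101, 102.5, 110.0 and 108 CPM in female KO libraries, against 90.4, 94.2, 93.6 and 98.6 CPM in female WT libraries. The groups did not overlap, with a log2 fold change of 0.16 ± 0.035 (adjusted p = 0.000288). Male cells gave -0.04 ± 0.038 (adjusted p = 0.568), and the effects differed by 0.20 ± 0.051 (adjusted p = 0.00558).

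Slc39a3, another plasma membrane importer, was at 28.8, 28.1, 29 and 28.9 CPM in female KO libraries, against 36.1, 30.8, 31.2 and 32.9 CPM in female WT libraries. The KO libraries lay close together and below the WT libraries. The log2 fold change of -0.19 ± 0.058 (adjusted p = 0.00842) was lost without female WT 1 (adjusted p = 0.0618). The male estimate was -0.05 ± 0.063 (adjusted p = 0.634).

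The 3 importers called in male cells changed little. Slc39a11 was at 31.3, 34.6 and 32.8 CPM in male KO libraries, against 30.2, 30.9, 26.7 and 30.4 CPM in male WT libraries. Its groups did not overlap, but the lowest KO library lay close to the highest WT library. Its log2 fold change of 0.16 ± 0.054 (adjusted p = 0.0349) was lost without male KO 2 or 3 or male WT 3 (adjusted p from 0.094 to 0.179), and under DESeq2 (adjusted p = 0.0565) or a fit of the male groups alone (adjusted p = 0.0709).

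Slc39a13, a transporter of secretory vesicles needed for connective tissue, was at 68.9, 70.7 and 66.1 CPM in male KO libraries, against 78.6, 71.0, 72.9 and 75.7 CPM in male WT libraries. The groups touched without overlapping. Its log2 fold change of -0.12 ± 0.044 (adjusted p = 0.0411) was lost without male KO 1 or 3 or male WT 1 or 4 (adjusted p from 0.0926 to 0.207), and under DESeq2 (adjusted p = 0.0646).

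Slc39a1, a widely expressed plasma membrane importer, was at 132, 130.3 and 128 CPM in male KO libraries, against 141, 142, 136 and 139 CPM in male WT libraries. The KO libraries all lay lower. The log2 fold change was -0.10 ± 0.034 (adjusted p = 0.0381), and it was lost without any male library other than male WT 3 (adjusted p from 0.0558 to 0.154) and under DESeq2 (adjusted p = 0.0537). The female effect was more positive by 0.15 ± 0.047 (adjusted p = 0.0226), which was lost without female KO 2, female WT 1 or 3, male KO 2 or 3 or male WT 2 (adjusted p from 0.0519 to 0.0712) and with scaling by library totals alone (adjusted p = 0.103). The remaining tested importers, Slc39a2, Slc39a4, Slc39a7, Slc39a9 and Slc39a14, were called in neither sex. Of these, Slc39a2 and Slc39a4 averaged at most 1.48 CPM in any group, and their standard errors of 0.26 to 0.41 left larger changes undetectable at this depth.

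The copper importer Slc31a1 fell slightly in female KO cells. Slc31a1, the high-affinity copper importer of the plasma membrane (chr4:62360727-62391769, plus strand), was at 79.3, 78.3, 83.8 and 84.1 CPM in female KO libraries, against 90.8, 92.5, 85.7 and 86.4 CPM in female WT libraries. The groups did not overlap. The log2 ratio was -0.12 ± 0.035 (adjusted p = 0.00473). Male KO libraries had 78.9, 78.8 and 80.8 CPM, against 85.4, 87.5, 83.8 and 83.4 CPM in male WT libraries, which did not overlap either, and the log2 fold change of -0.10 ± 0.038 missed the threshold (adjusted p = 0.0672), though it passed with a filter at 5 CPM (adjusted p = 0.0462). The effects differed by -0.03 ± 0.051 (adjusted p = 0.795). Slc31a2, a related protein of endosomes and lysosomes, had estimates of -0.03 ± 0.05 in female and 0.03 ± 0.054 in male cells and was not called.

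Slc41a2, a magnesium transporter (chr10:83230848-83337882, minus strand), moved in opposite directions in the sexes. In male cells it was at 12.9, 14.4 and 13.4 CPM in KO libraries, against 18, 17.5, 18.1 and 19.9 CPM in WT libraries. The male KO libraries were all far below the WT libraries, with a log2 fold change of -0.44 ± 0.073 (adjusted p = 2.54e-05). In female cells it was at 14.1, 14.9, 15.7 and 15 CPM in KO libraries, against 13.3, 13.3, 11.9 and 13.8 CPM in WT libraries. The female KO libraries stood slightly above the WT libraries. The female log2 fold change of 0.19 ± 0.07 (adjusted p = 0.0285) was lost without female KO 2, 3 or 4 or female WT 3 (adjusted p from 0.0518 to 0.119), under DESeq2 (adjusted p = 0.0534), without the filter (adjusted p = 0.0508) and with scaling by library totals alone (adjusted p = 0.0796). The difference between the sexes, 0.63 ± 0.1 (adjusted p = 1.94e-05), was called under each of the 24 alternative settings that could be fitted.

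Endothelial markers, none of the 10 below 1 CPM in all groups, moved with male Slc41a2. Of the 10, 9 fell in male KO cells, against 10.1% of all genes, and their sum was 37.5 to 48.5 CPM in female KO, 32.8 to 40.2 in female WT, 36.5 to 41.6 in male KO and 79.3 to 86.0 in male WT. As for Slc41a2, male WT was the highest group. The part of endothelial cells in the Slc41a2 result was not tested. Slc41a1, a magnesium exporter in exchange for sodium, and Slc41a3, a mitochondrial magnesium transporter, were not called with KO in either sex. Slc41a1 did pass, as lower in female KO, without female KO 3 (adjusted p = 0.0106) and with scaling by library totals alone (adjusted p = 0.0143).

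WT cells of the sexes also differed in 10 of the 32 genes, 3 higher and 7 lower in female WT, or 31.2% against 28.6% of all genes tested (12.6% higher and 16% lower). This comparison uses the same WT libraries as the KO comparisons above. Slc40a1 (log2 difference 0.32 ± 0.048, adjusted p = 2.42e-06), Slc39a10 (0.25 ± 0.037, adjusted p = 2.11e-06) and Slc30a1 (0.21 ± 0.075, adjusted p = 0.0354) were higher in female WT than in male WT. Tfrc (-0.77 ± 0.077, adjusted p = 1.85e-06), Slc41a2 (-0.49 ± 0.067, adjusted p = 5.12e-07) and Slc41a3 (-0.44 ± 0.16, adjusted p = 0.037) were lower by the most, and both ferritins, Slc39a1 and Slc11a2 were lower as well.

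Slc41a3 was at 2.03, 1.70, 1.81 and 1.98 CPM in female WT libraries, against 2.23, 2.17, 3.11 and 2.78 CPM in male WT libraries. These did not overlap, but the call was lost without female WT 2, 3 or 4 or male WT 3 or 4 (adjusted p from 0.0509 to 0.163), under DESeq2 (adjusted p = 0.0762), under limma-voom (adjusted p = 0.0522) and without the filter (adjusted p = 0.0571). The Slc30a1 call was lost without female WT 1, 2 or 3 or male WT 1 or 4 (adjusted p from 0.0598 to 0.159). That of Slc11a2 (-0.14 ± 0.045, adjusted p = 0.0166) was lost without female WT 4 or male WT 2 or 4 (adjusted p from 0.0536 to 0.0727). Among the 6 podocyte markers, none below 1 CPM in all groups, all 6 were called lower in female WT, against 16% of all genes. Their sum was 297 to 311 CPM in female WT and 449 to 475 in male WT. The part of podocytes in these differences was not tested.

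Other genes of the same pathways were counted from a list of 92 names, of which 88 were in the table and 77 were tested. In female cells 8 rose and 18 fell with KO (33.8%), and in male cells 2 rose and 7 fell (11.7%), shares below the 39.3% and 20.2% of all genes given above. Among 17 tested genes of iron uptake, release and reduction, 10 fell and 0 rose in female cells (58.8% called, median log2 fold change -0.37). Of all genes, 18.6% fell and 20.7% rose there. In male cells 3 fell and 0 rose (17.6% called, median -0.09). That share lies below the 20.2% of all genes, of which 10.1% fell and 10.1% rose. The median over all genes was 0.0 in both sexes. The 10 were Cp, Heph, Hfe, Lrp2, Mcoln1, Steap1, Steap2, Steap3, Steap4 and Tmprss6, and the 3 were Cp, Heph and Lrp2. The KO effect was more negative in female cells for 5 of the 17, namely Cp, Heph, Steap2, Steap3 and Tmprss6, and more positive for 0 (29.4%, against 15.6% of all genes).

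Cp and Heph encode the ferroxidases ceruloplasmin and hephaestin, which oxidise iron as it leaves through ferroportin. Cp was at 139, 134, 152 and 154 CPM in female KO libraries, against 326, 316, 305 and 290.3 CPM in female WT libraries. Every female KO library lay far below the lowest WT library, a 2.13-fold lower level (log2 fold change -1.09 ± 0.048, adjusted p = 6.7e-13). Male KO libraries had 99.1, 95.2 and 98.4 CPM, against 150.2, 156, 144 and 135 CPM in male WT libraries. These groups did not overlap either (log2 fold change -0.59 ± 0.055, adjusted p = 1.77e-07). The female effect was more negative (difference -0.51 ± 0.072, adjusted p = 4.79e-05).

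Heph was at 10.3, 10.3, 11.2 and 10.6 CPM in female KO libraries, against 15.8, 17.9, 16.8 and 16.4 CPM in female WT libraries, and at 15.1, 15 and 13.9 CPM in male KO libraries, against 18.3, 19.1, 19.7 and 18.7 CPM in male WT libraries. In each sex all KO libraries lay below all WT libraries. The log2 fold changes were -0.65 ± 0.068 (adjusted p = 1.07e-09) in female and -0.37 ± 0.068 (adjusted p = 0.0001) in male cells. Their difference of -0.28 ± 0.096 (adjusted p = 0.0408) was lost without any of 9 libraries (female KO 1, 2 or 4, female WT 2 or 3, male KO 1 or 2 and male WT 1 or 4, adjusted p from 0.0522 to 0.0924), under DESeq2 (adjusted p = 0.0701) and without the filter (adjusted p = 0.0626).

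Lrp2, the endocytic receptor megalin of the tubule brush border, which takes up carrier-bound metals, fell in both sexes. It averaged 12.1 ± 0.857 CPM in female KO and 19.5 ± 1.43 in female WT (log2 fold change -0.68 ± 0.074, adjusted p = 2.71e-09), and 15.4 ± 1.14 in male KO and 21 ± 1.54 in male WT (-0.44 ± 0.076, adjusted p = 4.44e-05). Lrp2 is also a proximal tubule marker, and 4 of the 8 tested markers of that list fell in female KO cells and 0 rose, against 18.6% lower and 20.7% higher among all genes. In male KO cells 2 fell (Ggt1 and Lrp2) and 1 rose (Pax8), against 10.1% of all genes in each direction. The sum of the tubule markers was 293 to 309 CPM in female KO, 364 to 384 in female WT, 323 to 335 in male KO and 314 to 336 in male WT.

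Tmprss6 and Steap4 also fell in female cells at low levels. Tmprss6, a protease that restrains the iron hormone hepcidin in liver, was at 1.31, 1.05, 1.48 and 1.17 CPM in female KO libraries, against 1.98, 2.71, 1.95 and 2.46 CPM in female WT libraries (log2 fold change -0.86 ± 0.2, adjusted p = 0.000769). Steap4, a metalloreductase, was at 0.514, 0.749, 0.785 and 0.765 CPM in female KO libraries, against 1.01, 1.54, 1.22 and 1.11 CPM in female WT libraries (-0.77 ± 0.26, adjusted p = 0.0187), and this call was lost without female KO 1 or female WT 2 (adjusted p from 0.0571 to 0.0715). Neither pair of groups overlapped. In male cells Tmprss6 gave 0.15 ± 0.24 (adjusted p = 0.74) and Steap4 -0.35 ± 0.29 (adjusted p = 0.459).

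Among 16 tested heme genes, 4 rose and 1 fell in female cells, and 2 rose and 1 fell in male cells. These shares, 31.2% and 18.8%, lie below the 39.3% and 20.2% of all genes. Hmox1, heme oxygenase, which frees iron from heme, was at 108, 111, 101 and 105 CPM in female KO libraries, against 75.5, 77.7, 81.2 and 73.4 CPM in female WT libraries. Female KO libraries were clearly the higher (log2 fold change 0.47 ± 0.039, adjusted p = 8.5e-12). In male cells it averaged 142 ± 4.07 CPM in KO and 142 ± 7.77 in WT (adjusted p = 0.971), and the difference between the sexes was 0.47 ± 0.056 (adjusted p = 1.01e-07).

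Blvra, which reduces the biliverdin that heme oxygenase makes, averaged 22.5 ± 1.12 CPM in male KO and 19.4 ± 1.35 in male WT (log2 fold change 0.21 ± 0.064, adjusted p = 0.0168). Alas1, the rate-limiting enzyme of heme synthesis outside red cells, averaged 45.3 ± 2.7 CPM in male KO and 40.5 ± 2.32 in male WT (0.17 ± 0.053, adjusted p = 0.0209). Both also rose in female KO cells (Blvra 0.20 ± 0.06, adjusted p = 0.00745, and Alas1 0.20 ± 0.05, adjusted p = 0.00166). The male calls were lost without male KO 3 or male WT 4 for Blvra (adjusted p from 0.0591 to 0.132) and without male KO 1 or 3 or male WT 3 for Alas1 (adjusted p from 0.0926 to 0.128).

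Cnnm4, a magnesium transporter of basolateral membranes, averaged 84.5 ± 4.05 CPM in female KO and 73.2 ± 2.03 in female WT (log2 fold change 0.21 ± 0.037, adjusted p = 2.46e-05). It was the 1 gene to rise among 13 tested magnesium and manganese genes in female cells. The other 4 called there, Cnnm2, Tmem165, Trpm6 and Tusc3, fell (38.5% called, against 39.3% of all genes). In male cells 0 rose, and Cnnm2 and Tusc3 fell (15.4%, against 20.2%). Of the remaining lists, copper handling had 1 of 11 tested genes lower in female cells and 0 called in male cells (1 at an unadjusted p below 0.05), against 39.3% and 20.2% of all genes. Zinc regulation and binding had 2 tested genes, including Mtf1, with 0 called and 0 at an unadjusted p below 0.05 in either sex.

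Counts were also summed per pool and KO compared with WT over the 4 pools, which is the comparison whose error holds differences between pools. Sex and genotype were additive terms, which left 1 residual degree of freedom. That residual is the difference of the KO effect between the sexes, so genes whose effect differs by sex have a larger error there. A missing call in this fit therefore does not show a missing change. Of 34 metal handling genes tested there, edgeR called 0, with 5 at an unadjusted p below 0.05, and limma-voom called 0 as well. Of all 15333 genes, 8 were called (0.0522%, with 0.00652% higher and 0.0457% lower). Slc40a1 had a log2 fold change of -0.41 ± 0.13 (adjusted p = 0.209), Tfrc of 0.46 ± 0.11 (adjusted p = 0.158) and Mt2 of 0.35 ± 0.092 (adjusted p = 0.167). With 1 pool of 3 to 4 mice in each group, differences between KO and WT mice cannot be told apart from differences between pools.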

How the data were processed

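Whole-number counts per gene symbol were deposited by the authors. Per the submitters' processing notes, STAR 2.6.1, featureCounts (no version given), edgeR 3.26.8, limma 3.40.6 and build mm10 were used, and libraries were strand-specific per the labels' protocols. Neither the gene annotation nor the strand option used for counting is given in the sources used here. A CPM table, also deposited, equals counts over library totals to within 5.1e-11 and was used for that check only.

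The analysis used edgeR 4.0.16 under R 4.3.3. Genes passing filterByExpr (minimum count 10, minimum total 15) numbered 13912 of 24421. Libraries were scaled by TMM, and a robust quasi-likelihood model with 1 mean per group was fitted to all 15 libraries. Common dispersion, as a square root, came to 3.59%. A call is a Benjamini-Hochberg adjusted p below 0.05 over all genes of a comparison. The script was tested on simulated data. Alternatives included limma-voom (limma 3.58.1), DESeq2 1.42.0, other scalings, filters, a replicate block, a fold test at 1.2 and leaving out each library.

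Members were found by symbol, and positions, lengths and overlaps came from GENCODE M21 (release 21, GRCm38). Libraries held 17648416 to 30896637 counts. Values per library are given for Mt1, Mt2, Tfrc, Fth1, Ftl1, Slc30a1, Slc39a10 and, per sex, up to 6 called members in each direction by size, 5 for the difference between sexes, 3 in each direction for the WT sexes, and 3 pathway genes in each direction averaging at least 1 CPM; 1 of these pathway genes is not reported here. Members and lists were chosen with earlier results of these data known.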

Additional observations from a re-analysis of the deposited data

Results flagged for a closer look

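In 126 groups of 4 libraries tested over 42 genes, 5 held a library far from the other 3, by a gap above Dixon's critical value, and chance flags about 1 in 20 groups. Tfrc was lowest in female KO 1 at 63.6 CPM, against 71.9 to 73.3 CPM in the other female KO libraries (gap 0.853 of the range). Steap4 was lowest in the same library at 0.514 CPM, against 0.749 to 0.785 CPM (0.867). Slc39a7 was highest there at 207 CPM, against 199 to 199.6 CPM (0.914). Slc39a8 was lowest in female WT 2 at 3.99 CPM, against 5.04 to 5.13 CPM (0.921). Aco1 was highest in male WT 2 at 124 CPM, against 115 to 116 CPM (0.832).

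The KO effect differed between the sexes, by the interaction test at an adjusted p below 0.05, for 14 of the same 42 genes. Of all genes tested, 15.6% differed. The pathway genes among the 42 were chosen for a called KO effect, so the count of 14 cannot be read against that share. Female minus male, the log2 difference was 0.63 for Slc41a2, 0.49 for Tfrc, 0.20 for Slc39a6, 0.18 for Fth1 and 0.15 for Slc39a1. It was -0.55 for Slc40a1, -0.32 for Mt2, -0.28 for Mt1 and -0.19 for Slc39a10. Among the other pathway genes it was 0.47 for Hmox1, 0.19 for Cnnm4, -0.51 for Cp, -0.28 for Heph and -1.01 for Tmprss6. It also differed for pathway genes given by name alone, namely Steap2 (-0.33, adjusted p = 0.00336), Steap3 (-0.46, adjusted p = 0.00363) and Trpm6, whose effect was more negative in female cells. The Tmprss6 difference was lost without female KO 2, female WT 2, male KO 3 or male WT 1 (adjusted p from 0.0545 to 0.0731).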

How the results depend on the processing

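No KO effect of a named gene changed sign past the threshold under any setting tried. The counts of calls below are given without the share of all genes called under the same setting. They therefore do not show whether metal handling genes moved more than other genes. Requiring a fold above 1.2 (glmTreat) left 1 member higher and 1 lower in female KO, 1 higher and 0 lower in male KO, 2 whose effect differed between the sexes, 2 that differed between the WT sexes, and 8 female and 1 male among the other pathway genes. This test asks for a larger effect by construction. Scaling by library totals alone gave 3 members higher and 11 lower in female KO and moved the median of all genes by under 0.1 on the log2 scale. DESeq2 gave 2 members lower in male KO. The cause of these last shifts was not tested. Leaving out each library in turn gave 3 to 6 members higher and 4 to 7 lower in female KO, 1 to 3 higher and 2 to 3 lower in male KO, 6 to 11 with a different effect between the sexes, 7 to 11 between the WT sexes, and 22 to 28 female and 5 to 12 male pathway genes. Leaving out female WT 3 took the female higher count to 3. Leaving out male KO 2 or 3 took the male higher count to 1, and male KO 1, 2 or 3 or male WT 4 took the male lower count to 2. Leaving out male KO 3 took the male pathway count to 5.

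The replicate numbers did not pair libraries across KO and WT (correlations of deviations -0.0285 to 0.072 over 7 pairs). With the replicate block, female KO had 6 members higher and 8 lower, male KO 4 higher and 6 lower, and 10 had a different effect between the sexes. The share of all genes called with the block is not given here either.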
